A study of Mus musculus with 12 samples.

Results

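The 10 genes described here encode 7 matrix metalloproteinases (MMPs: Mmp2, Mmp8, Mmp9, Mmp12, Mmp13, Mmp14 and Mmp19) and 3 tissue inhibitors of metalloproteinases (TIMPs: Timp1, Timp2 and Timp3), and were taken by symbol from the 24445 gene symbols counted in cardiac macrophages (Mφ). They were chosen by family membership and by their levels and differences between the 3 groups in these same libraries, so every count of members and every adjusted p given for them is a description of these libraries and no independent evidence. Mφ were sorted from hearts of adult male C57BL6/J mice, with 4 mice and 4 libraries in each of 3 groups. In control (Ct) mice the pump delivered saline. The study ran such pumps for 14 or 28 days, and which of these applies to each Ct mouse is not stated in the sources used here. The paper's legend for the sort says only that mice did or did not carry an isoproterenol pump. Early concentric hypertrophy (ECH) mice were infused for 14 days with the β-adrenergic agonist isoproterenol (30 mg/kg/day). Heart failure (HF) mice received the same dose for 28 days. The labels name no genetic change in any group. Hearts were digested with collagenase D, leukocytes were enriched on CD45 beads, and live CD11b+ CD14+/CD64+ cells were sorted. The comparisons ask which Mφ transcripts differ at the hypertrophic and at the failing stage. The sort yields a mixture of cells in each library, and in such bulk samples fewer cells of a type and less RNA per cell cannot be told apart.

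MMPs are zinc-dependent proteases that cut collagens, elastin, fibronectin and other proteins outside the cell. Most are secreted as inactive precursors, held shut by a cysteine that sits on the zinc ion, and become active when that propeptide is removed by other proteases. TIMPs block the active site, and Timp2 also serves with Mmp14 to activate the precursor of Mmp2 at the cell surface. In the heart, Mφ, neutrophils and fibroblasts all make these proteins, and they are known for their part in scar formation and dilation.

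Library totals ran from 88466559 to 111180291 counts, and values are given as CPM, the share of a gene in the TMM-scaled total of its library. Of all genes, 14608 had enough counts for a test, all 10 members among them. Library numbers in the labels allow 2 sets to be inferred, set A with the Ct libraries and ECH libraries 1 and 2, and set B with ECH libraries 3 and 4 and the HF libraries. The sources used here do not state such sets. All Ct libraries lie in set A and all HF libraries in set B, so that HF and Ct are never compared within a set. A set effect can be estimated from the ECH libraries alone, 2 in each set. The labels also give each library a code whose meaning is not stated in the sources used here. ECH libraries 3 and 4 (C23S1 and C23S2) share the first part of this code with each other alone. Ct libraries 1 and 2, Ct libraries 3 and 4, and HF libraries 1 and 2 also share theirs within each pair. In ECH, the set and the shared code therefore cannot be told apart. HF library 1 (13600 genes) and Ct library 2 (14489 genes) had the fewest genes detected of their groups. The 8 Mφ markers summed to between 8093 and 11584 CPM in every library, and none of them was at 0 in any library. Csf1r and Cd14 made up most of their sum, and Cd68 and Adgre1 came next (1125 and 1067 CPM on average). ECH libraries 3 and 4 stood apart in some of the 8. Adgre1, the F4/80 antigen of Mφ, was at 755 and 579 CPM there, against 878 CPM or more in every other library, and Mertk, a receptor for dying cells, was at 496 and 414 CPM, against 183 CPM or less. Itgam, which encodes CD11b, was at 636 to 787 CPM in ECH, above all Ct libraries (223 to 559 CPM). None of the 8 was called in any comparison, with an unadjusted p under 0.05 in edgeR for 2 in ECH and 2 in HF against Ct.

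Compared with Ct Mφ, Mmp14 transcripts were 4.82-fold higher in ECH Mφ and 4.51-fold higher in HF Mφ, and Mmp12 transcripts were 4.54-fold higher in HF Mφ. Mmp14 is an MMP anchored in the cell membrane, and Mmp12 is the elastase named after the Mφ. Timp2 was the most abundant of the 10 transcripts in every group and was 1.05-fold its Ct level in ECH and 1.17-fold in HF. The other members had no call in any comparison.

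A call meant a false discovery rate (FDR) under 0.05 and at least a 2-fold change in edgeR's quasi-likelihood test, fitted over all genes. In ECH against Ct, 1 of the 10 members was called, against 0.356% of all genes tested (0.267% higher, 0.089% lower). In HF against Ct, 2 of 10 were called, against 0.377% of all genes (0.267% higher, 0.11% lower). In HF against ECH no member was called (2 had an unadjusted p under 0.05 in the same test), nor was any of the 14608 genes (0%), and the lowest FDR was 0.338. Of all genes, 1165 (7.98%) had an unadjusted p under 0.05 in HF against ECH, and DESeq2 called 47. Because the comparisons chose the members, nothing is read from these shares.

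Libraries of 2 groups can also be compared by whether their values overlap. ECH and Ct libraries did not overlap for 3 members, with Mmp14 and Mmp19 higher and Mmp9 lower in ECH, against 7.96% of all genes in either direction (4.33% higher, 3.63% lower). In HF against Ct there was no overlap for 5 members, with Mmp12, Mmp14, Mmp19 and Timp1 higher and Mmp13 lower in HF, against 9.04% of all genes (4.59% higher, 4.45% lower). HF and ECH libraries did not overlap for Mmp9 alone among the members, higher in HF, against 6.92% of all genes (3.36% higher, 3.56% lower). The median log2 fold change of the 10 members was 1.25 in ECH against Ct, 0.26 in HF against Ct and 0.03 in HF against ECH, and over all genes it was 0.01, -0.01 and -0.02. Both isoproterenol groups were set against the same Ct libraries, so their differences from Ct are not independent of each other.

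**Figure D1:**
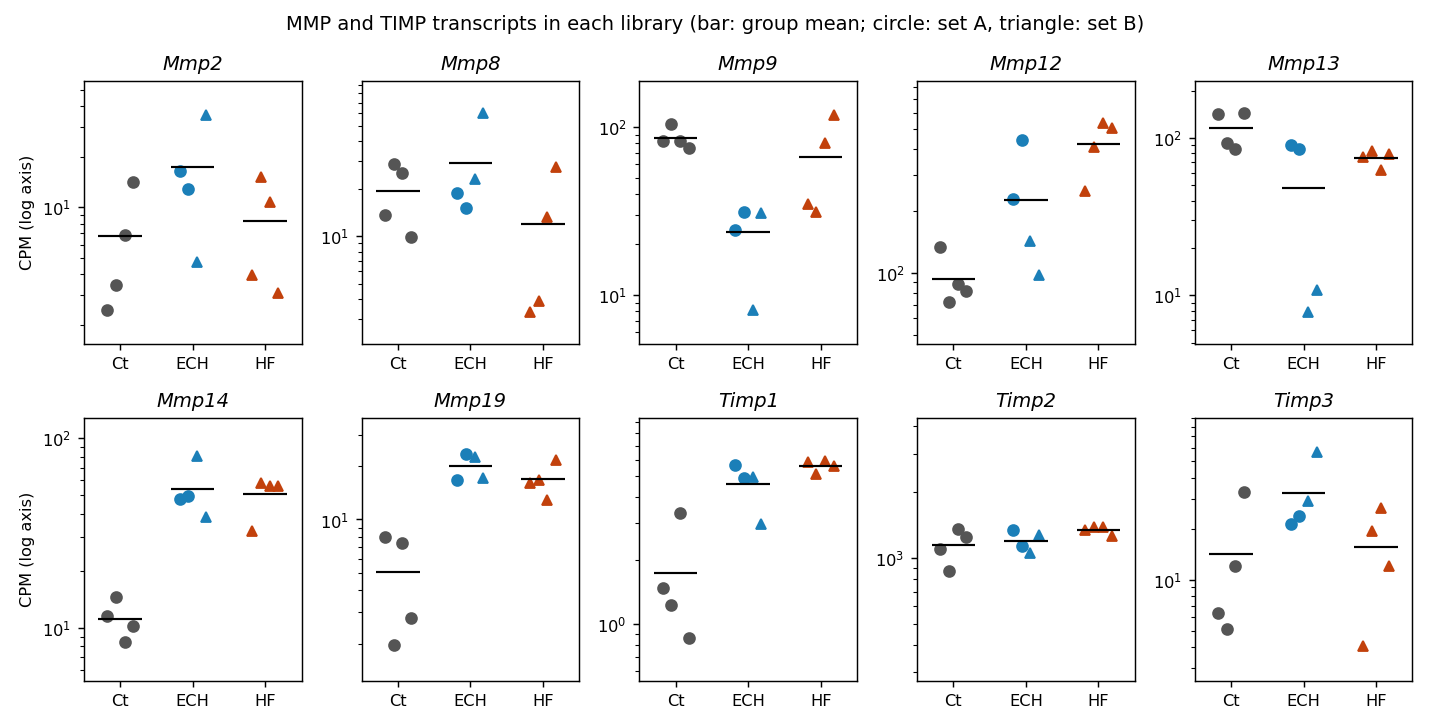
Level of each member in each of the 12 libraries, in CPM on a log axis, by group. Points are libraries, with circles for set A and triangles for set B, and the bar is the group mean. Mmp14 lay between 8.43 and 14.6 CPM in Ct and at 32.4 CPM or more in every ECH and HF library, and the ECH libraries of set A and set B lay apart for Mmp13.

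The 7 proteases share the stretch that binds the catalytic zinc ion, and it is shown because it marks what they have in common and how far they differ. The coding bases were read from the GENCODE M21 transcripts of GRCm38, on the strand of the gene, and the capitals mark the codons of the histidines that hold the zinc.
Mmp2, chr8:92839279-92839311, exon 8 of 13: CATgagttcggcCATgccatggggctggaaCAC
Mmp9, chr2:164951133-164951165, exon 8 of 13: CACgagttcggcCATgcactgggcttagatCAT
Mmp8, chr9:7563086-7563118, exon 5 of 10: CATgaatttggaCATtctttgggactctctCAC
Mmp13, chr9:7276573-7276605, exon 5 of 10: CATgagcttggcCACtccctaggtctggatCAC
Mmp12, chr9:7352914-7352946, exon 5 of 10: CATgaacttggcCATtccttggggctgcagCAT
Mmp14, chr14:54437627-54437659, exon 5 of 10: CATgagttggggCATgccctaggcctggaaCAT
Mmp19, chr10:128795673-128795705, exon 5 of 9: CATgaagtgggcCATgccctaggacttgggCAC
Between 20 and 27 of the 33 bases were identical in any pair, with the most (27) between Mmp2 and Mmp14 and the fewest (20) between Mmp8 and either Mmp9 or Mmp14. The cysteine of the propeptide is encoded in a second shared stretch, the cysteine switch. An exact search for its common form matched 6 of the 7 proteases. Variant forms, which Mmp19 may carry, were not searched for, so the lack of a match there says nothing about its cysteine. It is shown for the called proteases with the cysteine codon in capitals.
Mmp12, chr9:7348750-7348770, exon 2 of 10: cctcgaTGTggagtgcccgat
Mmp14, chr14:54436151-54436171, exon 3 of 10: cctcgcTGTggtgttccggat
The longest reading frames ran from 465 codons in Mmp8 to 730 in Mmp9 among the proteases, and from 205 in Timp1 to 220 in Timp2 among the inhibitors.

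Levels of different genes were compared per kilobase of exon (RPKM, from CPM). Timp2 led in every group, with a mean of 308 RPKM in Ct, 323 in ECH and 361 in HF, and its libraries overlapped with those of no other member. Mmp13 (43.4 RPKM), Mmp9 (27.1) and Mmp12 (23.5) followed in Ct, where neighbours in this order overlapped. Mmp12 came next to Timp2 in ECH at 57.0 RPKM, overlapping with Mmp13 at 18.1, and Mmp14 at 12.9 RPKM was next after Mmp13. In HF, Mmp12 had a mean of 107 RPKM and stood above all libraries of Mmp13 (28.1 RPKM), which overlapped with Mmp9 (20.8), as did Mmp9 with Mmp14 (12.1). Timp1 reached 6.32 RPKM in HF, below all HF libraries of Mmp14.

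Shares of single proteases were also read. Of the summed protease RPKM, Mmp12 made up 17.6% to 27.0% per library in Ct hearts, 27.6% to 61.0% in ECH hearts and 53.7% to 64.2% in HF hearts. For Mmp13 the share was 33.1% to 48.9% in Ct, 3.75% to 26.3% in ECH and 11.2% to 24.1% in HF. Mmp14 held 2.09% to 3.40% in Ct, 6.58% to 24.5% in ECH and 5.95% to 8.19% in HF. Mmp9 held 21.1% to 32.1% in Ct, 3.29% to 10.9% in ECH and 5.83% to 16.4% in HF. For these 4 proteases, the shares in Ct did not overlap with those in ECH or HF, those in ECH and HF overlapped, and no test of shares was run. Shares of a sum move together. Protease RPKM summed to 96.5 to 124 in Ct, 78.2 to 181 in ECH and 117 to 225 in HF, against inhibitor sums of 237 to 372, 297 to 371 and 348 to 384. The ratio of the 2 sums overlapped between all groups (0.259 to 0.433 in Ct, 0.247 to 0.576 in ECH and 0.318 to 0.646 in HF), and Timp2 made up 95.7% to 99.0% of the inhibitor sum in every library.

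**Figure D2:**
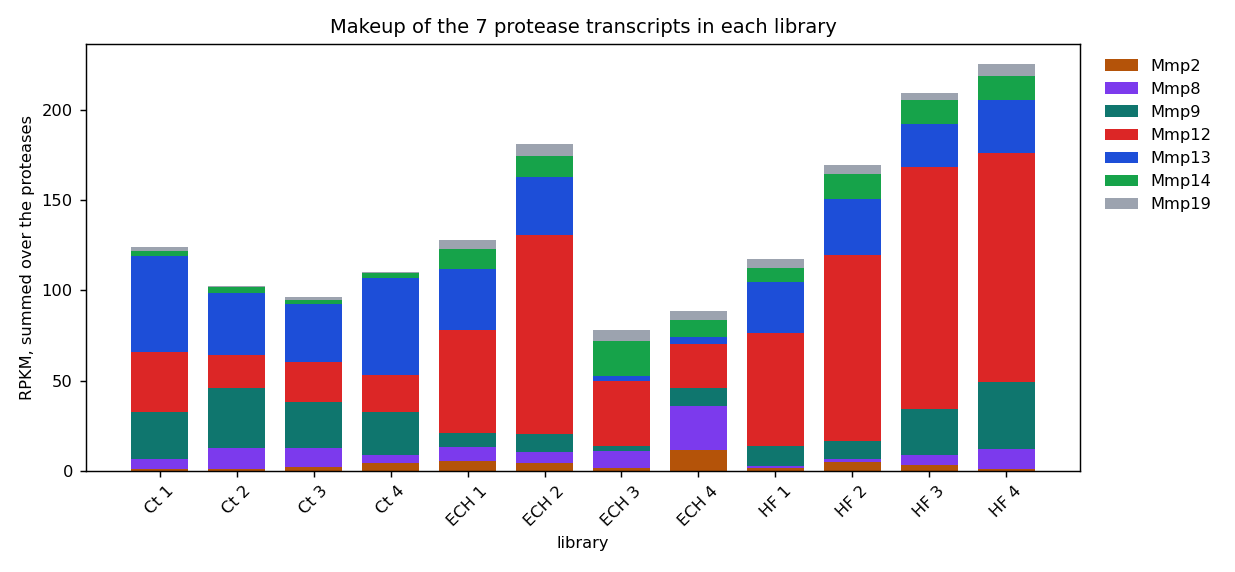
Summed RPKM of the 7 proteases in each library, stacked by gene, with a linear axis from 0. Mmp13 and Mmp9 take most of the Ct bars together with Mmp12, and Mmp12 takes 53.7% to 64.2% of the HF bars, while ECH libraries 3 and 4 hold little Mmp13.

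Mmp14 (chr14:54431612-54445364, GRCm38) cuts collagen around the cell that carries it. In CPM, Ct libraries 1 to 4 held 11.6, 14.6, 8.43 and 10.3 of it, ECH libraries 47.8, 49.9, 80.1 and 38.5, and HF libraries 32.4, 58.0, 55.8 and 56.0. Every isoproterenol library lay above every Ct library, ECH library 3 was the highest of all, and HF library 1 lay apart from the other HF libraries. The log2 fold change was 2.27 ± 0.27 (SE) in ECH against Ct, with an FDR of 0.00363 in edgeR's quasi-likelihood test. In HF against Ct it was 2.17 ± 0.27, with an FDR of 0.00335 in the same test. HF and ECH libraries overlapped, with a log2 fold change of -0.10 ± 0.25.

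The size of the Mmp14 difference varied little with the libraries used, but not every call did. Within set A, ECH libraries 1 and 2 were 2.11 higher than Ct on the log2 scale, with an edgeR FDR of 0.132. With the inferred set as a covariate, the HF difference was 1.89 on the log2 scale, with an edgeR FDR of 0.0601. Leaving out any single library kept both calls, with log2 fold changes of 2.02 to 2.42 in ECH and 2.06 to 2.34 in HF.

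Since Mmp14 and Mmp12 carried the calls and Mmp13 split the ECH libraries, the bases before their start sites were read from RefSeq promoters (GRCm38.p6), 5′ to 3′ on the strand of the gene. Each window of 250 bases was searched whole, and what is printed ends before the first base annotated as exon of the gene. The search was made on both strands for the AP-1 site TGAGTCA (in 4.46% of 32851 promoters of 250 bases), the cyclic AMP response element TGACGTCA (1.55%) and the PU.1 site GAGGAAGT (2.44%), and on the given strand for the TATA box TATAAA (7.59%). The windows found for 7 of the 10 members held few of them, and no matches overlapped. Besides those shown, Mmp8 held the PU.1 letters from 221 to 214 bases before its start, and none was found for Mmp14, Timp1, Timp2 or Timp3. The last 40 bases of the Timp3 window lie in an annotated exon, and the Timp2 window begins within one.
Mmp14, chr14:54431348-54431597: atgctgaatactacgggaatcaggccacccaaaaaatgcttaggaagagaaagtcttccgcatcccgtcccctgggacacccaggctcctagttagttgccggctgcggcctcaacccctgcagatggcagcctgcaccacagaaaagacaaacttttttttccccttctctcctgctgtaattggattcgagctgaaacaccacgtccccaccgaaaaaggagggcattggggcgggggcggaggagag

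Mmp12 (chr9:7344381-7369499, GRCm38), which cuts elastin, lies in a cluster of MMP genes on chromosome 9 with Mmp8 and Mmp13. In CPM, the Ct libraries 1 to 4 held 133, 72.0, 87.98 and 81.7 of it, the ECH libraries 228, 440.1, 143 and 97.2, and the HF libraries 251, 410.2, 534 and 505. All HF libraries lay above all Ct libraries, whereas ECH libraries spanned from the Ct range to the HF range, with both libraries of set A above both of set B. In HF against Ct the log2 fold change was 2.18 ± 0.41, with an FDR of 0.0364 in edgeR's quasi-likelihood test. ECH stood 1.28 ± 0.40 above Ct on the log2 scale, with an edgeR FDR of 0.209, and HF stood 0.90 ± 0.39 above ECH, with an edgeR FDR of 0.598.

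The call of Mmp12 in HF Mφ did not hold without Ct library 1, 2, 3 or 4, ECH library 1, or HF library 2, 3 or 4. In these fits the edgeR FDR lay between 0.0525 and 0.111 and the log2 fold change between 2.05 and 2.40. Without Ct library 2 and HF library 1 together the edgeR FDR was 0.0763. Within set B alone, HF stood 1.82 above ECH libraries 3 and 4 on the log2 scale, with an edgeR FDR of 0.0224. With the set as a covariate, HF stood 3.66 above Ct, with an edgeR FDR of 0.00743. In ECH this set cannot be told apart from the shared code of libraries 3 and 4.

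RefSeq gives Mmp12 a pair of start sites. The window before the first held the PU.1 letters, on the opposite strand as ACTTCCTC, from 88 to 81 bases before the start, and the window before the second held the AP-1 letters from 44 to 38 bases before it, both in capitals. The first is printed without the 16 bases that the annotation counts as exon.
Mmp12, first start, chr9:7344147-7344380: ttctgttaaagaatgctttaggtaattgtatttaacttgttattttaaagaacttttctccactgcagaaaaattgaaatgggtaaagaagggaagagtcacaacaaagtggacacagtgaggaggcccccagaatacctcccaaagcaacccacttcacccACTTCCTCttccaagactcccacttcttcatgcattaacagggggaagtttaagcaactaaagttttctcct
Mmp12, second start, chr9:7347124-7347373: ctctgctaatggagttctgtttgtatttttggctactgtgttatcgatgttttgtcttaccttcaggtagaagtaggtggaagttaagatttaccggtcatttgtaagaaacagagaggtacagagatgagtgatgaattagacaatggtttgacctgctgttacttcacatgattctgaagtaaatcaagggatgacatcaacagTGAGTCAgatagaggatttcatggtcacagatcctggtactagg

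Mmp13 (chr9:7272514-7283331) is the main collagenase of interstitial collagen in mice. Libraries 1 to 4 held 141, 92.6, 85.4 and 144 CPM of it in Ct, 89.9, 85.2, 7.83 and 10.8 CPM in ECH, and 75.6, 83.2, 62.8 and 79.1 CPM in HF. ECH libraries 1 and 2 lay within or near the Ct range, and ECH libraries 3 and 4 lay far below every other library. All HF libraries lay below all Ct libraries. Its log2 fold change was -1.26 ± 0.61 in ECH against Ct (edgeR FDR 0.447) and -0.62 in HF against Ct (edgeR FDR 0.669), so neither was called.

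In both comparisons with HF, the inferred set changed the Mmp13 values more than those of any other member. In ECH this set cannot be told apart from the code that libraries 3 and 4 share. Within set B alone, the HF libraries stood 3.01 above ECH libraries 3 and 4 on the log2 scale, with an edgeR FDR of 0.00193, against 0.64 (edgeR FDR 0.873) over all libraries. With the set as a covariate, HF stood 2.61 above Ct on the log2 scale, with an edgeR FDR of 0.00434, and so in the other direction than without it. Within set A, the log2 fold change of ECH libraries 1 and 2 against Ct was -0.41, with an edgeR FDR of 0.951. Other genes read here split the ECH libraries in the same pairs, and were named after their values were seen. Besides Adgre1 and Mertk, Il1b was at 882 and 1022 CPM in ECH libraries 1 and 2 and at 255 and 382 CPM in libraries 3 and 4. Tnf (258 and 187 against 50.5 and 102 CPM) and Il1a (44.3 and 67.1 against 5.87 and 15.6 CPM) were also lower in libraries 3 and 4. The part of these differences in the Mmp13 values was not tested. The Mmp13 window held the AP-1 letters, on the opposite strand as TGACTCA, from 35 to 29 bases before the start and the TATA box from 16 to 11 bases before it, in capitals.
Mmp13, chr9:7272264-7272513: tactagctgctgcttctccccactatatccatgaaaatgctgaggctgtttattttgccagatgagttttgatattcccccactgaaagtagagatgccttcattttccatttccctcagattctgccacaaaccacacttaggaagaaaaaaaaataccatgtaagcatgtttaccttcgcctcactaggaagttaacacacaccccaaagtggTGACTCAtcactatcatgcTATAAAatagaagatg

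Mmp8 (chr9:7558456-7568485) is a collagenase best known from neutrophil granules. It stood at 13.7, 28.6, 25.0 and 9.94 CPM in Ct libraries 1 to 4, at 18.8, 15.1, 23.1 and 59.9 CPM in ECH, and at 3.32, 3.87, 13.2 and 27.4 CPM in HF. ECH library 4 was the highest and HF libraries 1 and 2 were the lowest, and the 3 groups overlapped. The log2 fold changes were 0.60 in ECH against Ct, -0.69 in HF against Ct and -1.29 in HF against ECH, with edgeR FDRs of 0.764, 0.649 and 0.646. Without ECH library 4 the first of these was -0.02.

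The gelatinases Mmp2 and Mmp9 cut denatured collagen and basement membrane. Mmp9 (chr2:164940780-164955850) was at 82.8, 104, 81.9 and 75.4 CPM in Ct libraries 1 to 4, at 24.3, 31.2, 8.16 and 30.6 CPM in ECH, and at 34.6, 31.3, 80.6 and 117 CPM in HF. ECH libraries lay below all Ct libraries and, with 31.2 against 31.3 CPM at the narrowest, below all HF libraries, and HF libraries formed a lower and a higher pair, the higher within or above the Ct range. The log2 fold change was -1.87 ± 0.45 in ECH against Ct, with an FDR of 0.0982 in edgeR's quasi-likelihood test. For HF against ECH it was 1.48 ± 0.44 with an edgeR FDR of 0.534, and for HF against Ct -0.39 with an edgeR FDR of 0.717. DESeq2 put ECH against Ct past the threshold (FDR 0.000872), as did the likelihood ratio test of edgeR (0.00322), and over all alternatives its FDR ran up to 0.503.

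Mmp2 (chr8:92827291-92853420), a gelatinase mostly made by fibroblasts, was low in these cells. Ct libraries 1 to 4 held 2.46, 3.47, 6.88 and 14.1 CPM, ECH libraries 16.4, 12.8, 4.76 and 35.2 CPM, and HF libraries 3.99, 15.2, 10.7 and 3.08 CPM. Groups overlapped throughout, and ECH library 4 stood highest. The differences were 1.36 ± 0.68 in ECH against Ct, 0.29 in HF against Ct and -1.07 in HF against ECH on the log2 scale, with edgeR FDRs of 0.466, 0.876 and 0.743. The ECH difference from Ct was 2.02 without Ct library 4 and 0.75 without ECH library 4.

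Mmp19 (chr10:128790910-128800824) cuts components of basement membranes. Its CPM in libraries 1 to 4 were 7.96, 1.98, 7.40 and 2.80 for Ct, 16.8, 23.3, 22.4 and 17.1 for ECH, and 16.05, 16.8, 12.9 and 21.6 for HF. Every isoproterenol library was above every Ct library, and ECH and HF overlapped. The log2 fold change was 1.98 ± 0.40 in ECH against Ct, where the edgeR FDR of 0.0500184 lay just above the threshold. HF stood 1.74 ± 0.40 above Ct, with an edgeR FDR of 0.0786, and HF against ECH differed by -0.24.

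The Mmp19 difference between ECH and Ct passed the threshold under 7 of its 23 alternatives. These were median-ratio scaling (edgeR FDR 0.0484), DESeq2, the likelihood ratio test, limma-voom (FDR 0.0270), no filter (edgeR FDR 0.0435), a filter of more than 1 CPM (edgeR FDR 0.0395), and the fit without Ct library 3 (edgeR FDR 0.0413). Under the other 16 it did not, with edgeR FDRs of 0.136 with only the ECH and Ct libraries, 0.0979 with the replicate block, 0.207 with the set as covariate and 0.777 within set A. The difference between HF and Ct passed under 3 of 22, which were DESeq2, the likelihood ratio test and limma-voom. The log2 fold change ran from 1.70 to 2.29 in ECH against Ct over these alternatives. Exons of Mmp19 share 789 bases with Tmem198b on the opposite strand, which had a mean of 17.4 CPM over all libraries. Whether the counting used strand is nowhere stated in the sources used here, so reads of the 2 genes may not be separated there, and their part in the Mmp19 values was not tested.

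Among the inhibitors, Timp1 (chrX:20870166-20874735) is the one that binds the precursor of Mmp9. It was at 1.48, 1.23, 3.37 and 0.861 CPM in Ct libraries 1 to 4, at 5.64, 4.93, 4.94 and 2.96 CPM in ECH, and at 5.82, 5.11, 5.92 and 5.602 CPM in HF. The HF libraries lay close together and above all Ct libraries, whereas ECH library 4 fell below Ct library 3. Its log2 fold change was 1.69 ± 0.44 in HF against Ct and 1.41 ± 0.44 in ECH against Ct, with edgeR FDRs of 0.117 and 0.210. Without Ct library 3 these edgeR FDRs were 0.0273 and 0.0481, with log2 fold changes of 2.24 and 1.96. With all libraries, the HF difference also passed the threshold with DESeq2 (FDR 0.00532), the likelihood ratio test (edgeR FDR 0.0275) and limma-voom (FDR 0.0384), and the ECH difference with DESeq2 (FDR 0.0382). Under the other 18 of 22 alternatives in HF and 21 of 23 in ECH, it did not.

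Timp2 (chr11:118301069-118355740) blocks most MMPs and is the partner of Mmp14. Libraries 1 to 4 held 1098, 869.6, 1358 and 1241 CPM in Ct, 1337, 1129, 1058 and 1271 CPM in ECH, and 1341, 1379, 1379 and 1259 CPM in HF. All groups overlapped, and Ct library 2 was the lowest. The log2 fold change was 0.07 ± 0.14 in ECH against Ct and 0.23 in HF against Ct, with edgeR FDRs of 0.893 and 0.459. Neither difference was detected against this spread.

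Timp3 (chr10:86300372-86349506) stays bound to the matrix and also blocks ADAM proteases. Its values were 6.36, 5.09, 11.97 and 32.8 CPM in Ct libraries 1 to 4, 21.4, 23.7, 29.1 and 56.3 CPM in ECH, and 4.04, 19.5, 26.4 and 11.98 CPM in HF. Ct library 4 lay within the ECH range, HF library 1 was the lowest of all, and every pair of groups overlapped. The log2 fold changes were 1.21 ± 0.62, 0.14 and -1.08 in ECH against Ct, HF against Ct and HF against ECH, with edgeR FDRs of 0.475, 0.941 and 0.707. The first of these was 2.06 without Ct library 4 and 0.82 without ECH library 4. Its exons share 1733 bases with Syn3 on the opposite strand, a neuronal gene with a mean of 0.635 CPM here.

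**Figure D3:**
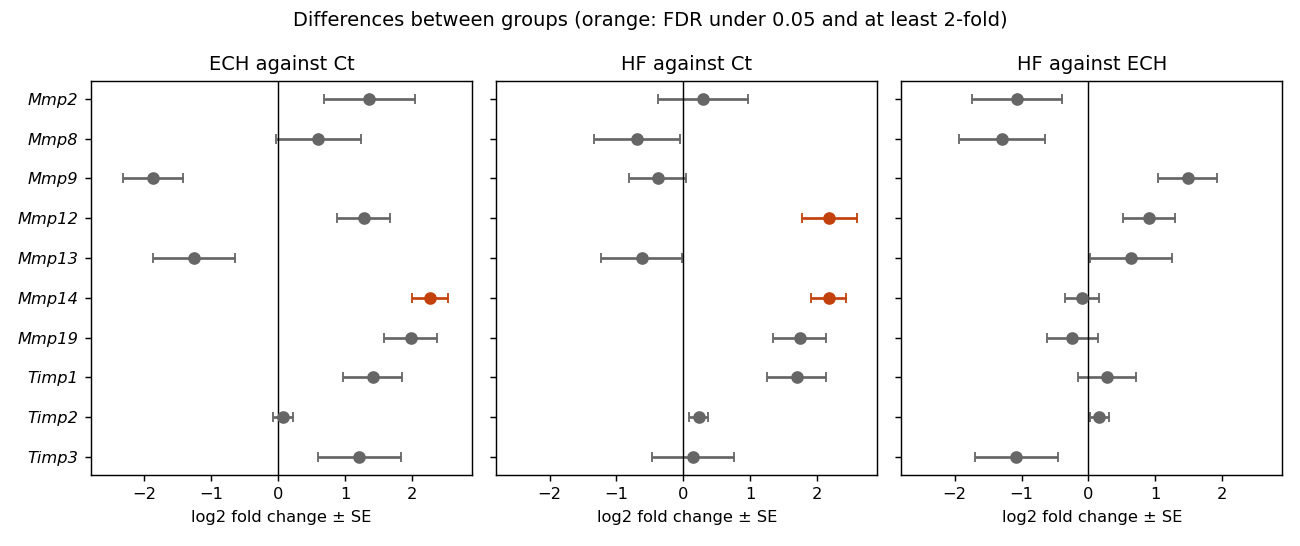
Log2 fold change of each member in the 3 comparisons, with bars of 1 SE from edgeR's quasi-likelihood fit. Orange points are called (FDR under 0.05 and at least 2-fold), which holds for Mmp14 in both comparisons with Ct and for Mmp12 in HF against Ct.

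Markers of other cells that make these proteins were read in the same libraries. The 11 neutrophil markers summed to between 358 and 1733 CPM in Ct, 171 and 638 CPM in ECH, and 127 and 1240 CPM in HF. All 9 that were tested were lower in ECH than in Ct and in HF than in Ct, and none was called (unadjusted p under 0.05 for 2 and 4 in edgeR). S100a8 lay at 64.3 to 474 CPM in Ct, 19.7 to 138 CPM in ECH and 15.1 to 370.1 CPM in HF. Ly6g was at 2.76 CPM or less in every library and at 0 in ECH library 3 and HF libraries 1 and 2. Other genes of the list were named after their values were seen. In HF, Camp was at 0, Ltf at 0.314 CPM or less and Ngp at 1.40 CPM or less, below all Ct libraries. HF library 4 had the highest sum of HF. It held 370.1 CPM of S100a8 and 602 CPM of S100a9, which carried most of that sum. ECH library 4, highest in Mmp8, also had the highest sum of ECH, and HF libraries 1 and 2, lowest in Mmp8, had the lowest sums of HF. Within Ct, Mmp8 had the same order of libraries as the sum. By contrast, ECH library 3 held 23.1 CPM of Mmp8 beside the lowest sum of ECH, 171 CPM. ECH library 2 held the least Mmp8 of ECH, 15.1 CPM, beside a sum of 339 CPM. Mean Mmp8 was 19.3 CPM in Ct and 29.2 CPM in ECH. Within HF, Mmp9 had the same order of libraries as the neutrophil sum, and within Ct library 2 was the highest and library 4 the lowest in both. Across groups, Ct library 4 held 75.4 CPM of Mmp9 beside a neutrophil sum of 358 CPM, and ECH library 4 held 30.6 CPM beside a sum of 638 CPM. The part of neutrophil RNA in Mmp8 and Mmp9 was not tested.

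The 10 fibroblast markers summed to between 307 and 823 CPM in Ct, 493 and 1244 CPM in ECH, and 647 and 1247 CPM in HF. Gsn made up most of this sum in every library, with 273 of 307 CPM in Ct library 1 and 987 of 1247 CPM in HF library 3. Of these, 8 of 10 were higher in ECH than in Ct and 10 of 10 in HF than in Ct, and none was called (unadjusted p under 0.05 for 0 and 1 in edgeR). Dcn lay at 21.2 to 131 CPM in Ct, 50.7 to 309 CPM in ECH and 63.8 to 162 CPM in HF. Pdgfra was at 0 in Ct library 1 and HF library 1 and reached 6.33 CPM in HF library 3. Within Ct and within ECH, Mmp2 had the same order of libraries as the fibroblast sum, and within HF it did not. The part of fibroblast RNA in Mmp2 and Timp3 was not tested.

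Endothelial markers summed to 34.5 to 114 CPM over the 12 libraries with Cdh5 at 1.88 CPM or less. Mural markers summed to 4.59 to 20.3 CPM, with Myh11 at 0 in all Ct libraries, ECH library 1 and HF libraries 1 to 3, and at 0.646 CPM or less in the others. Cardiomyocyte markers summed to 71.6 to 253 CPM, with Myh6 at 4.30 to 20.96 CPM. Of these 8 markers, 7 were at lower values in ECH than in Ct, with Myh6 the exception, and 8 in HF than in Ct, and none was called (unadjusted p under 0.05 for 1 and 3 in edgeR). Markers of Ly6C-high monocytes, which mature into Mφ, summed to 2162 to 5548 CPM in Ct, 4432 to 5367 CPM in ECH and 4584 to 5618 CPM in HF, and Ct library 2 was the lowest.

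**Figure D4:**
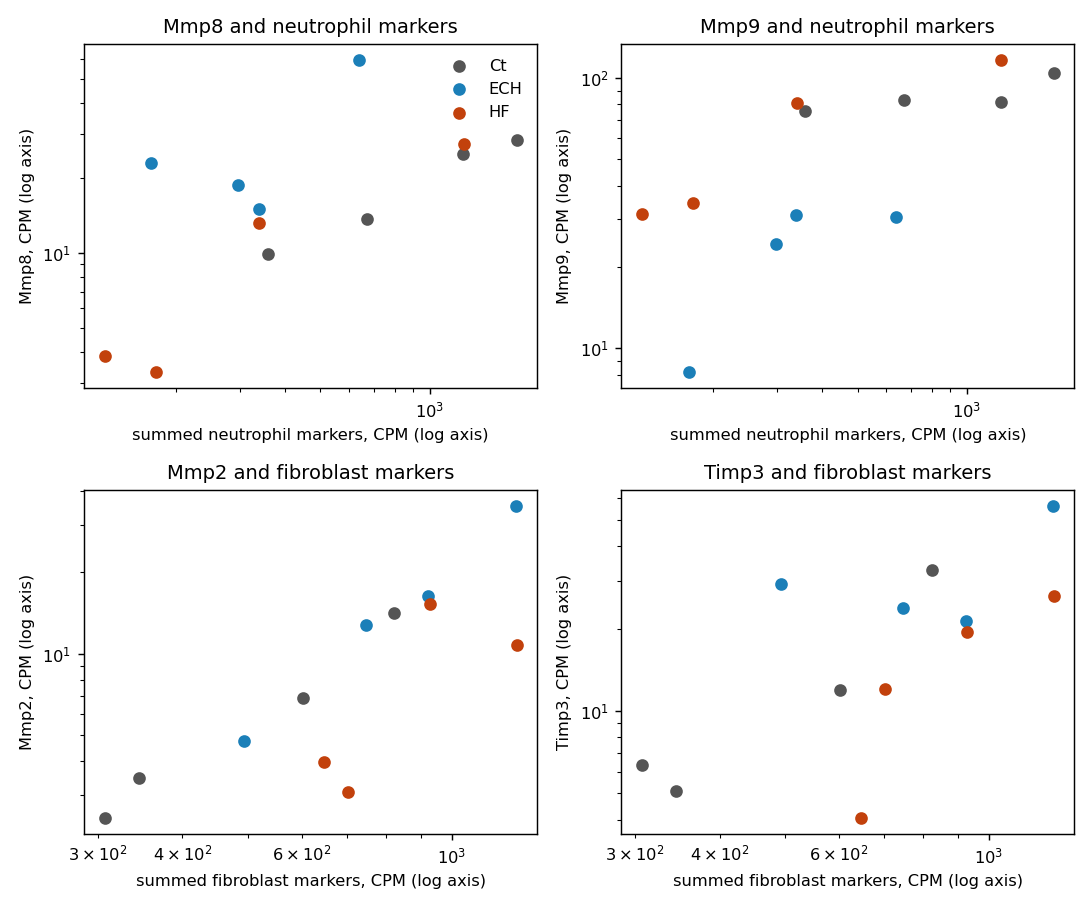
Mmp8 and Mmp9 against summed neutrophil markers and Mmp2 and Timp3 against summed fibroblast markers, in CPM on log axes, with 1 point per library and colours for the groups. The fibroblast sum is mostly Gsn. ECH library 4 is the highest point for Mmp8, Mmp2 and Timp3, and the ECH points of Mmp9 lie at 31.2 CPM or less.

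The rest of the family was little expressed. Of the other 17 genes, 3 (Mmp1a, Mmp1b and Mmp7) had no count in any library, 11 were tested and 5 reached a mean of 1 CPM. None was called in edgeR's quasi-likelihood test, with an unadjusted p under 0.05 for 2 in ECH against Ct, 3 in HF against Ct and 1 in HF against ECH. Mmp3, which activates other MMPs, was at 0, 2.10, 0.425 and 1.82 CPM in Ct libraries 1 to 4, at 10.2, 3.27, 1.33 and 17.2 CPM in ECH, and at 4.43, 11.96, 10.99 and 8.83 CPM in HF. All HF libraries lay above all Ct libraries, with a log2 fold change of 3.06 ± 1.10 and an edgeR FDR of 0.211. Timp4, the TIMP best known from the heart, averaged 1.39, 2.39 and 0.211 CPM in Ct, ECH and HF Mφ. Its HF libraries, of which library 1 held no count, lay below all ECH libraries, with a log2 fold change of -3.50 and an edgeR FDR of 0.554. Means in Ct, ECH and HF were 1.67, 2.37 and 2.75 CPM for Mmp11, 0.455, 1.74 and 1.64 CPM for Mmp23, and 1.63, 1.63 and 1.11 CPM for Mmp25.

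Around the proteases, lists of genes that activate, bind, clear or induce them or are cut by them were read with the rest of the family, 58 genes of which 49 were tested. In ECH against Ct 2 of the 49 were called (4.08%, against 0.356% of all genes), in HF against Ct 3 (6.12%, against 0.377%), and in HF against ECH none, nor with DESeq2 or the likelihood ratio test. As with the members, the lists were written with earlier results known, and nothing is read from these shares. The number of calls fell when certain single libraries were left out. In ECH against Ct none was called without Ct library 1, and 1 without Ct library 4 or ECH library 3. In HF against Ct none was called without Ct library 4, and 1 without Ct library 1 or 2, ECH library 1, 2 or 4, or HF library 2, 3 or 4.

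Of 9 matrix proteins that MMPs cut, 1 was called in ECH against Ct and 2 in HF against Ct, all higher. An unadjusted p under 0.05 in edgeR's quasi-likelihood test was found for 3 and 2, against 11.9% and 16.1% of all genes. The fold changes of all 9 were positive in both comparisons, with a median log2 value of 1.16 in ECH and 0.48 in HF, and the smallest were those of Eln in ECH at 0.22 and of Col4a1 in HF at 0.09. Of the 9, Col1a1, Col1a2 and Col3a1 are also on the list of fibroblast markers, whose part was not tested. Spp1, or osteopontin, rose from 49.1 ± 22.6 CPM (SD, n = 4) in Ct to 672 ± 425 CPM in ECH Mφ and 671 ± 330 CPM in HF Mφ. These were log2 fold changes of 3.78 and 3.77, with edgeR FDRs of 0.0139 and 0.0123. Fn1, or fibronectin, rose from 100.4 ± 34.9 CPM in Ct to 359 ± 192 CPM in HF, by 1.84 on the log2 scale with an edgeR FDR of 0.0467, and was at 291 ± 94.7 CPM in ECH (edgeR FDR 0.0950). No Ct library overlapped with an ECH or HF library for either gene.

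Of the 7 tested genes that bind MMPs or clear them from the cell surface, Thbs1 was called. Thbs1 encodes thrombospondin, which ferries MMPs to the uptake receptor Lrp1, and rose from 72.7 ± 23.4 CPM in Ct to 279.8 ± 65.4 CPM in ECH. The log2 fold change was 1.94 ± 0.32, with an edgeR FDR of 0.0202. In HF it was at 154 ± 74.5 CPM, with an edgeR FDR of 0.144 against Ct. The 7 tested activation genes, which include proteases that remove propeptides, had no call (unadjusted p under 0.05 for 1 in ECH and 2 in HF in edgeR) and a median log2 fold change of 0.36 in ECH and 0.34 in HF. Furin, which cuts the precursor of Mmp14, was at 87.1, 106 and 110.2 CPM and Plaur, the receptor that gathers plasmin formation at the cell surface, at 125, 133 and 139 CPM on average in Ct, ECH and HF.

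Transcription factors of the AP-1 and ETS families, which bind MMP promoters, were lower in 8 of 9 cases in ECH and in HF against Ct. Their median log2 fold change was -0.68 in ECH and -0.75 in HF. With an unadjusted p under 0.05 in edgeR's quasi-likelihood test there were 7 of 9 in each comparison, against 11.9% and 16.1% of all genes. Ets1 was the called one and fell from 60.7 ± 29.8 CPM in Ct to 18.7 ± 4.53 CPM in HF, with a log2 fold change of -1.70 and an edgeR FDR of 0.0394. In ECH, at 20.6 ± 5.17 CPM, its edgeR FDR was 0.0589. Fos and Jun, named after their values were seen, were at 9188 and 4394 CPM in Ct, 6097 and 2888 CPM in ECH, and 5665 and 2699 CPM in HF on average.

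Cytokines that induce MMPs had no call among 6 genes (unadjusted p under 0.05 for 3 in ECH and 1 in HF in edgeR), and their median log2 fold change was -0.63 in ECH and -0.30 in HF. Il1b averaged 1177 ± 339, 635 ± 374 and 794 ± 265 CPM (SD, n = 4) in Ct, ECH and HF, with edgeR FDRs of 0.400 and 0.520 against Ct. The ECH mean pools separate pairs, since libraries 1 and 2 lay within the Ct range (669 to 1357 CPM) and libraries 3 and 4 below every other library. For Tnf, the means were 114, 149.5 and 161 CPM in the same order, with edgeR FDRs of 0.759 and 0.598, and ECH libraries 1 and 2 stood above all Ct libraries (79.1 to 141 CPM) and library 3 below them.

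**Figure D5:**
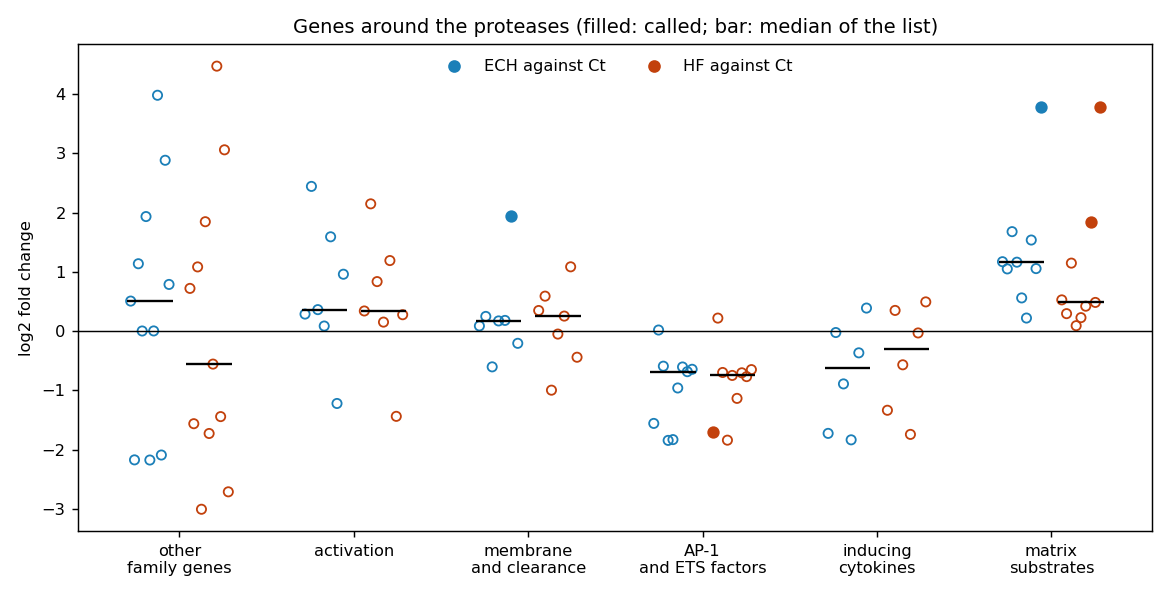
Log2 fold change of each tested gene of the family and pathway lists, for ECH and HF against Ct. Filled points are called and the bar is the median of the list. The matrix substrates lie above 0 in both comparisons, and 8 of 9 AP-1 and ETS factors lie below it.

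Genes whose profile over the 12 libraries was most like that of a member were found among 11941 genes by the root mean square difference of centred log2 values, where 0 means the same profile. This was read for the 3 members with the widest range of log2 values. For Mmp13 (range 4.18) they were Bank1 (0.54), St3gal6 (0.55) and Bmp2 (0.56). Those nearest to Mmp8 (range 4.13) were Cd300lf (0.59), Gm9733 (0.60) and Hp (0.61), and those nearest to Mmp9 (range 3.83) were Slpi (0.52), Gfra2 (0.54) and Klhl13 (0.56). Named after their values were seen, the nearest to Mmp14 was Adam8 (0.37), to Mmp12 Kcnn4 (0.41) and to Timp1 Lgals3 (0.38), and the 3 nearest to Mmp2 were Bgn (0.48), Dcn (0.49) and Col1a2 (0.50), of which Dcn and Col1a2 are on the list of fibroblast markers.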

How the data were processed

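RNA of sorted Mφ was amplified with the SMART-Seq v4 kit and sequenced from both ends, with 1 library per mouse. The authors used Trimmomatic on the reads and TopHat2 for alignment to mm10 (GRCm38), and deposited raw counts per gene from featureCounts, not normalized. The sources used here leave versions, annotation and strand setting unstated. Members and gene lists were chosen with earlier results of these data known. In edgeR 4.0.16 (R 4.3.3), filterByExpr kept 14608 genes, and TMM-scaled counts were fitted with 1 mean per group over all 12 libraries by the quasi-likelihood method, with Benjamini-Hochberg adjustment over all genes. The biological coefficient of variation was 60.8%. Exon lengths, positions and coding bases came from GENCODE M21, promoters from RefSeq (7 of 10 members matched, not Mmp2, Mmp9 and Mmp19). P-values set group differences against a spread between libraries, 1 per mouse, that was estimated over all groups. The parts of mice, amplification, counting and inferred set in this spread were not separated.

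Named were all members, other family genes with a mean of at least 1 CPM, pathway genes that were called or else the 2 most abundant of their list, single markers of other cell types, and genes most like the 3 members with the widest range (log2 of CPM plus 0.1). Alternatives were median-ratio scaling, DESeq2 1.42.0, the likelihood ratio test, limma-voom (limma 3.58.1), other filters, fits of 2 groups, a replicate block, the inferred library set as covariate or alone, and fits without single libraries or without Ct library 2 and HF library 1. On simulated data with 200 of 14608 genes changed 4-fold, the test recovered 69.5% in ECH against Ct, 65% in HF against Ct and 69.5% in HF against ECH, and of 2-fold changes 18.5%, 19% and 11.5%. Figures were drawn with Python 3.11.15 and matplotlib 3.10.9.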

Additional observations from a re-analysis of the deposited data

Results flagged for a closer look

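In groups of 4 libraries, a library was marked when its gap to the nearest other library took a larger share of the range of the group than Dixon's 95% critical value. Of 69 groups tested over the members and named genes, 5 were marked, and chance marks about 1 in 20 groups, or 3.45 of 69. Mmp14 was lowest in HF library 1 at 32.4 CPM, against 55.8 to 58.0 CPM in the other HF libraries. Mmp25 was at 0.0 CPM in HF library 1, against 1.39 to 1.58 CPM in the others. Timp4 was highest in ECH library 3 at 4.63 CPM, against 1.43 to 1.84 CPM. Furin was lowest in Ct library 2 at 65.7 CPM, against 92.5 to 96.6 CPM. Il1b was lowest in Ct library 4 at 669 CPM, against 1333 to 1357 CPM.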

How the results depend on the processing

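For the 30 fold changes of members, 680 alternatives were computed, of which 628 kept their direction and side of the threshold, 12 lost the call, 23 gained it and 17 changed sign. Genes called in ECH against Ct, HF against Ct and HF against ECH were 245, 337 and 47 with DESeq2, 218, 273 and 48 by the likelihood ratio test, and 84 and 130 against Ct with limma-voom. Members called in ECH and HF against Ct were 5 and 4 with DESeq2, 3 and 4 by the likelihood ratio test and 2 and 4 with limma-voom, and pathway genes 6 and 9 with DESeq2, 7 and 7 by the likelihood ratio test. Median-ratio scaling, no filter and more than 1 CPM each called 2 members in ECH against Ct. Fits of 2 groups called 8 genes in ECH against Ct, and 1 pathway gene in each comparison with Ct. With the library set as covariate, 22, 208 and 272 genes, 1 pathway gene in each comparison with Ct and 2 members in HF against ECH were called. Within 1 set, ECH against Ct called 1 gene, 0 members and 0 pathway genes, and HF against ECH 370 genes and 2 members. Without Ct library 2 and HF library 1, 1 member and 1 pathway gene were called in HF against Ct.

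Libraries with the same replicate number did not deviate together (correlations of -0.08 to 0.08 over 12 pairs), so they share only a number. With the replicate block, 22 genes in ECH and 18 in HF were called against Ct, 1 member in HF against Ct, and 0 pathway genes in either. Mmp12 in HF against Ct then had an edgeR FDR of 0.0929.

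With 1 library left out, genes called ran from 11 (without Ct library 1) to 95 (without Ct library 3) in ECH against Ct and from 15 to 103 (without the same libraries) in HF against Ct. Members called ran from 1 to 3 and from 1 to 2, and pathway genes from 0 to 3 in both. Of the 17 changes of sign, 1 was called under its alternative, that of Mmp13 in HF against Ct with the set as covariate (edgeR FDR 0.00434). On the log2 scale, Mmp14 in HF against ECH was 0.040 with limma-voom, 0.070 without Ct library 2 and HF library 1, and -0.23 to 0.16 with 1 library left out. With the set as covariate, Mmp8 in ECH against Ct was -0.19, and in HF against Ct Mmp2 was -0.16, Mmp9 0.13, Mmp13 2.61 and Timp3 -0.78. Within set A, Mmp8 was -0.19. Timp2 in ECH against Ct was -0.050 without Ct library 2 and HF library 1. With 1 library left out, Timp3 in HF against Ct ran from -0.26 to 0.99, Timp2 in ECH against Ct from -0.039 to 0.17, Mmp8 in ECH against Ct from -0.021 to 0.85, and Mmp2 in HF against Ct from -0.18 to 0.95. The cause of these changes was not tested. Totals were 88466559 counts or more per library, but the RNA was amplified and the sources used here name no molecular identifiers, so counts need not be independent molecules, and counting error was not separated from the spread between mice.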
